A study of Mus musculus with 6 samples.

Results

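Liver mRNA of 33 genes of blood clotting, the kinin system and fibrinolysis was compared between mice that had undergone vertical sleeve gastrectomy (VSG, a form of weight-loss surgery in which the stomach is reduced to a narrow tube) and sham-operated mice. The 33 genes were a list set by name, and all 33 were found among the 55385 genes of the count table through their GENCODE M21 symbols. Poly(A) RNA had been sequenced from about 40 mg of liver of each of 3 sham and 3 VSG mice, which are numbered 1 to 3 and 4 to 6. All 6 were wild-type males, given in the methods as C57BL/6 and in the labels as 6 to 8 weeks old at the high-fat feeding that lasted 10 weeks before the operation and went on for 12 weeks after it, so that diet was shared by both groups. Food intake, body weight and the feeding state at tissue collection were not given for these 6 animals, so the operation and what accompanies it cannot be told apart.

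Blood clots when proteases activate one another in sequence until thrombin cuts fibrinogen into fibrin. Hepatocytes make most of these plasma proteins, together with many of the inhibitors that stop the cascade and with plasminogen, the precursor of the enzyme that dissolves fibrin. A smaller set, among them von Willebrand factor, factor VIII, thrombomodulin and tissue plasminogen activator, comes largely from endothelial cells. Fibrinogen is also an acute phase protein, whose liver synthesis rises with inflammatory cytokines such as IL-6.

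Total counts ran from 22804397 to 24191778 per library, and all 33 genes passed the filter on low counts. Hepatocyte markers were abundant in every library, with a summed level from 65733 to 110479 CPM (counts scaled to library size with TMM factors) under sham and from 48748 to 80407 CPM after VSG, and 0 of the 8 were called by edgeR (1, Ttr, at an unadjusted p under 0.05, as lower). Markers of other cell types, in lists chosen with earlier results of these data known, differed between the groups. Neutrophil markers were called as higher in 10 of 10 genes by edgeR (adjusted p under 0.05), where 6.79% of all genes were. Their sums ran from 2.604 to 14.3 CPM under sham and from 148 to 1824 CPM after VSG. Kupffer cell and macrophage markers were called as higher in 4 of 8 genes by edgeR (Clec4f, Vsig4, Timd4 and Marco). All 8 had positive log2 fold changes, 5 of them at an unadjusted p under 0.05, where 16.9% of all genes were higher. Their sums ran from 345 to 730 CPM against 742 to 2165 CPM. Stellate cell markers were called as lower in 3 of 8 genes by edgeR (Reln, Colec11 and Hand2), where 7.87% of all genes were. All 8 had negative log2 fold changes, 6 of them at an unadjusted p under 0.05, where 17% of all genes were lower. Their sums ran from 470.0 to 728 CPM against 244 to 395 CPM. None of these lists had a marker at 0 counts in both groups, and their part in the results below was not tested. In bulk tissue, fewer cells of a type and less RNA per cell cannot be told apart.

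The fibrinogen genes lie side by side on chromosome 3 (mm10), Fgg at 83007724 to 83015049 and Fga at 83026076 to 83033627 on the plus strand and Fgb at 83040141 to 83049863 on the minus strand. Fga and Fgg are 11026 bases apart, and Fga and Fgb 6513 bases. Their upstream sequences are shown because these 3 genes moved furthest among those that passed the test. Each line gives, 5′ to 3′ on the strand of the gene, the 250 bases before the RefSeq start (GRCm38.p6, the assembly of mm10), at chr3:83025903-83026152, chr3:83049864-83050113 and chr3:83007474-83007723. GENCODE M21 starts Fga earlier than RefSeq, so the end of that window is transcribed in the GENCODE model. Capitals mark matches, on either strand, to CTGGGAA (letters of the IL-6 response element), GTTAAT (a core of the HNF1 site), TTGCAA (C/EBP letters) or TTCNNNGAA (STAT letters).
Fga: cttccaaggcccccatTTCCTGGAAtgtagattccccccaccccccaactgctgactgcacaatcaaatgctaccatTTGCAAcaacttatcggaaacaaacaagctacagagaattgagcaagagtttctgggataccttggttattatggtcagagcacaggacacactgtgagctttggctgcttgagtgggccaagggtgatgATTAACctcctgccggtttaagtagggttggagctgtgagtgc
Fgb: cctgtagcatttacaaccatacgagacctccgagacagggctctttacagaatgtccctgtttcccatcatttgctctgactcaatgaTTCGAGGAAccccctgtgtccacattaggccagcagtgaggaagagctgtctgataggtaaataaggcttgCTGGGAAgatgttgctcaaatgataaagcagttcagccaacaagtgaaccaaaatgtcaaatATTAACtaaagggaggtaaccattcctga
Fgg: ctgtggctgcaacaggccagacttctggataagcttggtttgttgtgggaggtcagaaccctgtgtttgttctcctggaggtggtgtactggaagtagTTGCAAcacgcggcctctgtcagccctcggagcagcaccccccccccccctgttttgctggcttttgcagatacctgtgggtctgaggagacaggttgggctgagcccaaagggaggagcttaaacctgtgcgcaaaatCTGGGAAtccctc
No match overlaps another in these windows. Fgb and Fgg held CTGGGAA, from -91 to -85 and from -13 to -7 relative to the start, while the Fga window held no such match. Fga and Fgb held GTTAAT on the opposite strand, from -43 to -38 and from -29 to -24. TTGCAA occurred in Fga and Fgg, and TTCNNNGAA in Fga and Fgb. Of 32851 RefSeq promoter windows of this length, 9.10% held CTGGGAA, 6.43% GTTAAT, 5.34% TTGCAA and 7.02% TTCNNNGAA. Of the 26 genes of the group with a window in the table, 4 held CTGGGAA (Fgb, Fgg, F9 and Tfpi), 5 GTTAAT (Fga, Fgb, F13b, Hgfac and Proz), 3 TTGCAA (Fga, Fgg and Kng2) and 5 TTCNNNGAA (Fga, Fgb, F9, Hgfac and Pros1). In F9 the CTGGGAA and TTCNNNGAA matches overlap. These matches describe letters and not bound sites.

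After VSG, 9 of the 33 genes were higher and 0 were lower at an adjusted p under 0.05 (edgeR quasi-likelihood test, Benjamini-Hochberg adjustment over 14454 genes). Over all genes tested 14.7% were called, 6.79% as higher and 7.87% as lower. The 9 genes were the fibrinogen chains Fga, Fgb and Fgg, the kininogens Kng1 and Kng2, the protease F7, the anticoagulant cofactor Pros1, and the fibrinolysis inhibitors Serpinf2 and Cpb2. The median log2 fold change of the 33 genes was 0.33, and it was 0.03 over all genes tested. Leaving out the fibrinogen chains, 6 of 30 genes were higher and the median was 0.27. At an unadjusted p under 0.05, 15 genes were higher and 2 (Plat and Thbd) were lower, where 33.9% of all genes passed this limit, 16.9% as higher and 17% as lower. In 14 genes all VSG libraries lay above all sham libraries and in 1 gene below them, against 19.8% of all genes in each direction and 39.7% in either. With DESeq2, 14 genes were higher and 1 was lower (Plat), where 18.7% of all genes were called, 8.73% as higher and 9.98% as lower. With limma-voom 9 genes were higher and 0 lower, where 12.9% of all genes were called, 5.59% as higher and 7.26% as lower. With total counts in place of TMM factors 9 were higher and 0 lower, where 13.8% of all genes were called, 3.36% as higher and 10.5% as lower. The count of 9 fell to 5 when sham replicate 1 was left out, to 2 with VSG replicate 6 left out and to 0 with sham replicate 3 left out, and the share of all genes called fell to 8.19%, 1.42% and 1.07%. Without sham replicate 3, 12 of the 33 genes and 23.2% of all genes had an unadjusted p under 0.05 by edgeR, the only tool run on that subset.

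**Figure D1:**
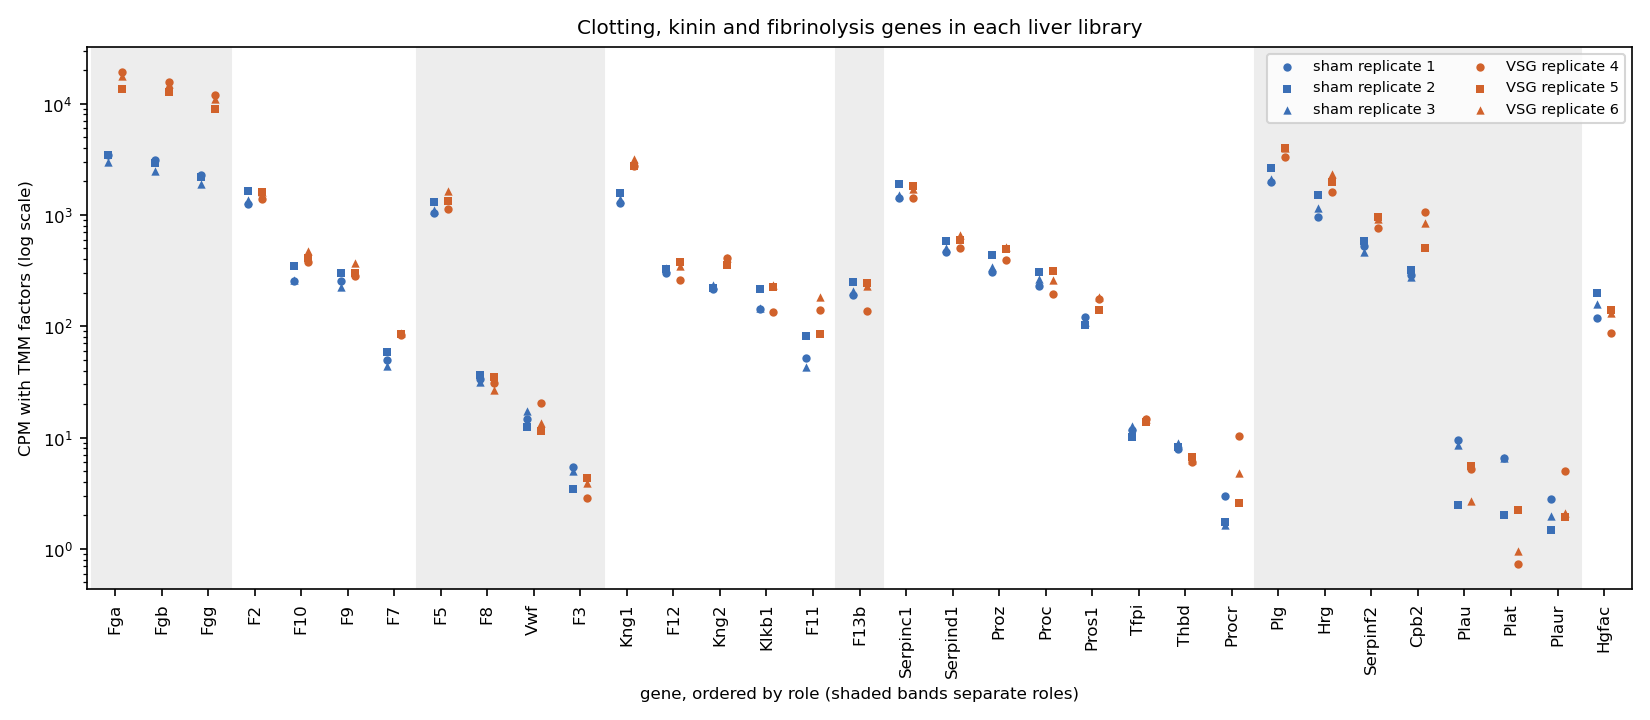
The plot of CPM by library gives each of the 33 genes on a log axis, blue for the 3 sham and orange for the 3 VSG libraries, with the marker shape naming the replicate and shaded bands separating the roles. The fibrinogen chains stand apart, with sham values from 1902 to 3463 CPM and VSG values from 8958 to 19401 CPM, while most other genes sit at similar heights in both groups.

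**Figure D2:**
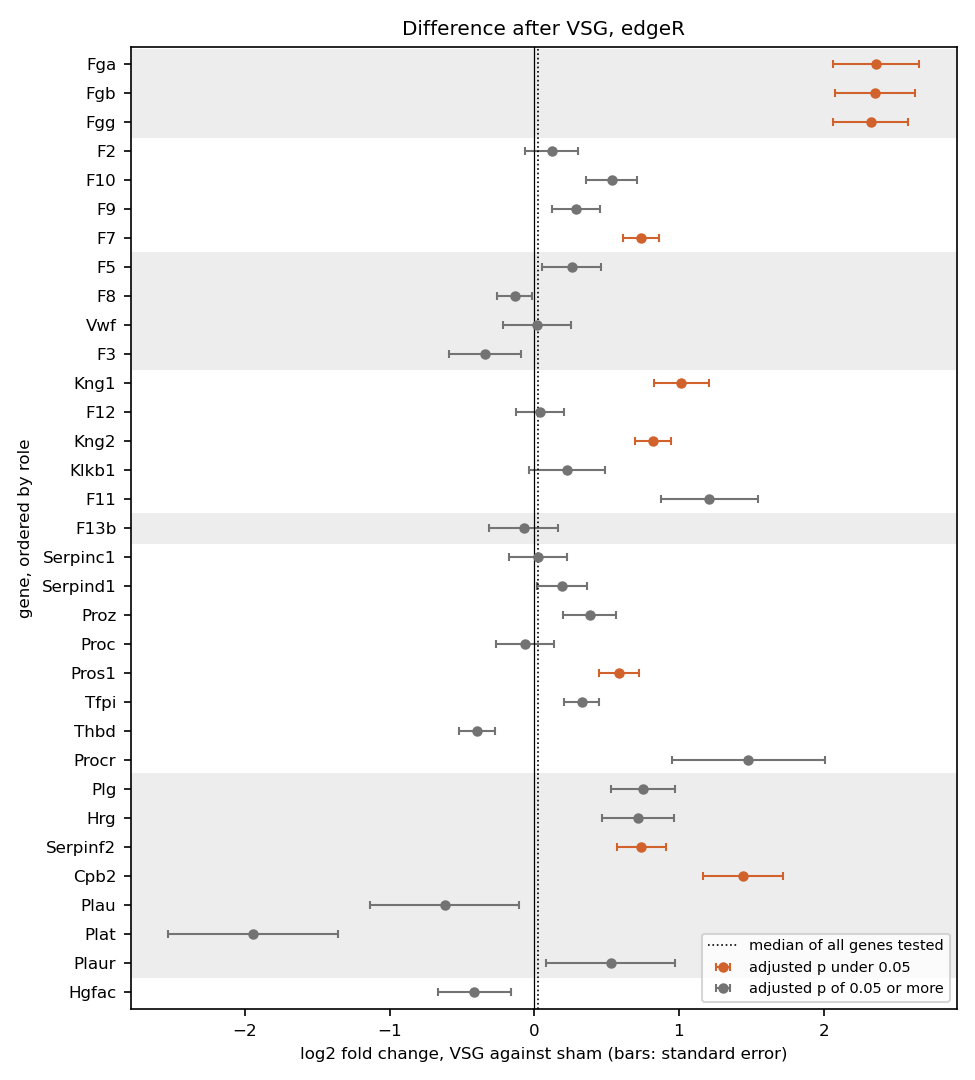
The plot of log2 fold changes gives the difference of VSG against sham for each gene with its standard error, orange where the adjusted p was under 0.05, and the dotted line is the median of all genes tested (0.03). The 3 fibrinogen chains lie between 2.32 and 2.36, and Plat is lowest at -1.94, in grey with a wide error.

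Fibrinogen is the substrate of thrombin, a hexamer of paired α, β and γ chains, each encoded by its own gene. Fga was at 3463, 3446 and 2975 CPM in the sham libraries and at 19401, 13621 and 17890 CPM in the VSG libraries. Fgb was at 3136, 2905 and 2465 CPM under sham and at 15784, 12808 and 14984 CPM after VSG. Fgg was at 2290, 2196 and 1902 CPM under sham and at 11934, 8958 and 11111 CPM after VSG. The groups did not overlap in any of the 3 genes, and VSG replicate 5 was the lowest VSG library in all of them. The fold changes were 5.15 for Fga (log2 fold change 2.36, SE 0.298, adjusted p 0.00914), 5.12 for Fgb (2.36, SE 0.277, adjusted p 0.00783) and 5.01 for Fgg (2.32, SE 0.262, adjusted p 0.00721) by edgeR. Leaving out sham replicate 3 ended all 3 calls (adjusted p 0.0708, 0.0612 and 0.0565), and leaving out VSG replicate 6 ended that of Fga (0.0536), while the log2 fold changes over the 12 alternatives stayed between 2.18 and 2.48. VSG replicate 5 also had the lowest summed neutrophil markers of its group (148 CPM, against 1824 and 842 CPM in replicates 4 and 6), and the part of these markers in the result was not tested.

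The 3 chains together took 1.02%, 0.789% and 0.799% of all counts under sham, against 4.57%, 3.52% and 3.94% after VSG. They made up 39.0% ± 3.89 (SD, n = 3) of the counts of the 33 genes under sham and 69.1% ± 4.32 after VSG. The other 30 genes took 1.35% ± 0.0323 of all counts under sham and 1.77% ± 0.135 after VSG. Fibrinogen mRNA was therefore the larger share of the group in every VSG library and the smaller share in every sham library.

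Per length, Fga and Fgg were close to each other and Fgb was lower in every library. The lengths used were the summed exon bases of each gene, 3010 for Fga, 2093 for Fgg and 3810 for Fgb. In CPM, Fgb lay above Fgg in every library, so this order of the chains depends on those lengths. In FPKM (counts scaled by library size and gene length), Fga was at 1095 ± 92.0, Fgg at 1017 ± 96.5 and Fgb at 744 ± 89.5 in sham livers, and at 5638 ± 996, 5097 ± 734 and 3812 ± 404 in VSG livers. The ratio of Fgb to Fga in FPKM was 0.715, 0.666 and 0.654 under sham and 0.643, 0.743 and 0.662 after VSG, and the exact two-sided permutation p was 0.9. The ratio of Fgg to Fga was 0.951, 0.916 and 0.919 under sham and 0.885, 0.946 and 0.893 after VSG, with an exact p of 0.4. Both ratios overlapped between the groups. With 3 libraries against 3 the smallest p this test allows is 0.1. Of the exon bases of Fgg, 5.49% lie opposite an exon of Gm30097, which had 823 counts in all libraries together against 866378 of Fgg.

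**Figure D3:**
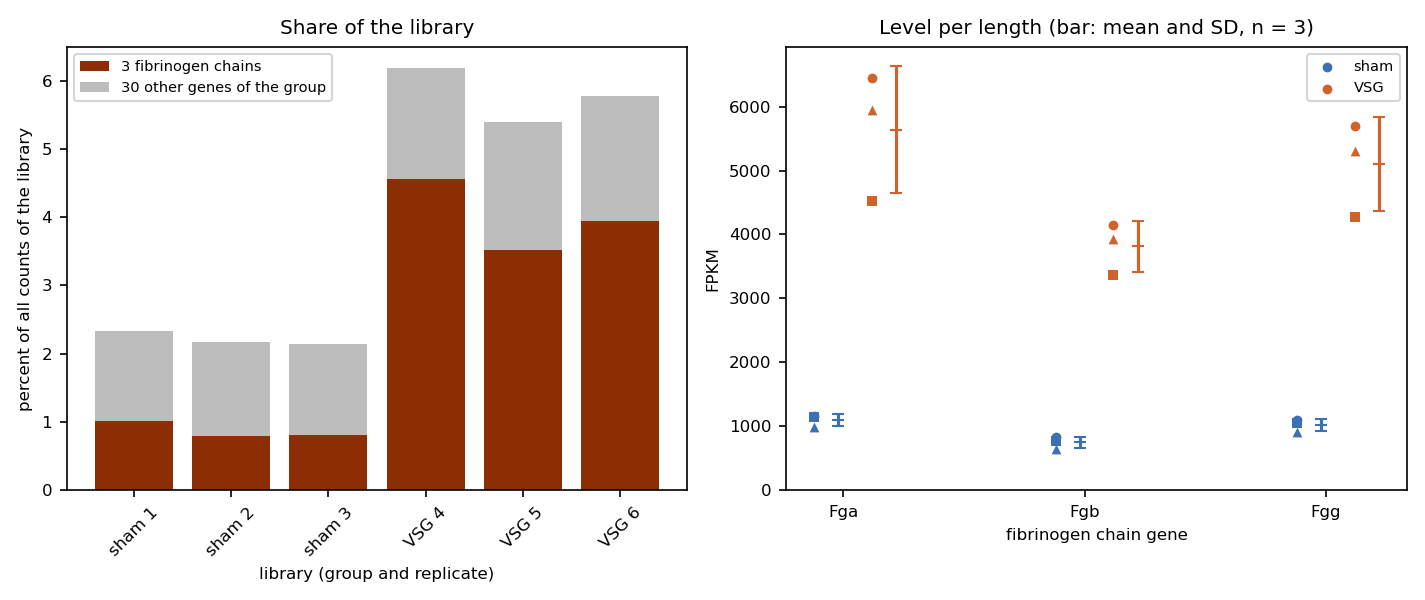
The left plot gives the percent of all counts taken by the 3 fibrinogen chains (brown) and by the 30 other genes (grey) in each library, and the right plot gives the FPKM of each chain by library, with shapes for the replicates as before and the mean and SD beside them. The whole group took 2.14% to 2.34% of the sham libraries and 5.39% to 6.19% of the VSG libraries.

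Prothrombin and factors VII, IX and X need vitamin K to be carboxylated before they can bind membranes. Of the 4 genes in this class only F7 (25%) passed the test, where 14.7% of all genes were called, 6.79% as higher. The product of F7 starts clotting once it meets tissue factor. F7 was at 49.8, 59.3 and 44.4 CPM under sham and at 83.8, 85.7 and 86.2 CPM after VSG, a 1.67-fold rise (log2 fold change 0.74, SE 0.122, adjusted p 0.0165 by edgeR). The VSG values were nearly equal and all lay above the sham values. The call was lost without sham replicate 3 (0.0801) and without VSG replicate 6 (0.0706). F10, which encodes the protease that cuts prothrombin, lies 1498 bases downstream of F7 on chromosome 8, from 13037308 to 13056676. F10 was at 258, 351 and 260 CPM under sham and at 378, 410 and 472 CPM after VSG (log2 fold change 0.53, SE 0.174, adjusted p 0.0838). Its groups did not overlap, and it was called by DESeq2 (adjusted p 0.0423). F9, the X-linked factor lacking in haemophilia B, was at 227 to 301 CPM under sham and 283 to 367 CPM after VSG (log2 fold change 0.29, SE 0.164, adjusted p 0.254). F2, the gene of prothrombin, was at 1249 to 1640 CPM under sham and 1397 to 1617 CPM after VSG (0.12, SE 0.184, adjusted p 0.667). The levels of F9 and F2 overlapped between the groups. The enzymes of the vitamin K cycle Ggcx (0.16, adjusted p 0.323) and Vkorc1 (-0.07, adjusted p 0.757) did not pass the test either, and the sign of Vkorc1 turned without sham replicate 2 or VSG replicate 4.

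Among the initiator and the cofactors, 0 of 4 genes were called by edgeR, DESeq2 or limma-voom, and 0 had an unadjusted p under 0.05. Factor V, which speeds thrombin formation, is encoded by F5, at 1041 to 1310 CPM under sham and 1141 to 1639 CPM after VSG (log2 fold change 0.26, SE 0.202, adjusted p 0.397). F8, the gene of the cofactor lacking in haemophilia A, was at 31.3 to 36.4 and 26.9 to 34.9 CPM (-0.14, SE 0.122, adjusted p 0.459). Vwf, whose product carries factor VIII and tethers platelets, was at 12.6 to 17.5 and 11.5 to 20.2 CPM (0.02, SE 0.234, adjusted p 0.965). F3, which encodes tissue factor, was at 3.47 to 5.47 and 2.85 to 4.32 CPM (-0.34, SE 0.249, adjusted p 0.369). All 4 genes overlapped between the groups. Endothelial markers summed to 391 to 463 CPM under sham and 398 to 474 CPM after VSG, and 0 of 10 were called by edgeR (1, Cdh5, at an unadjusted p under 0.05, as higher).

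The contact and kinin system starts clotting on charged surfaces and releases bradykinin, a vasodilator peptide, from kininogen. Both kininogen genes were higher after VSG. Kng1 was at 1293, 1585 and 1394 CPM under sham and at 2744, 2730 and 3171 CPM after VSG, 2.02-fold higher (log2 fold change 1.02, SE 0.190, adjusted p 0.0216 by edgeR). Kng2 was at 214, 219 and 235 CPM under sham and at 413, 358 and 408 CPM after VSG, 1.77-fold higher (0.82, SE 0.122, adjusted p 0.0131). The groups lay well apart in both genes. Both calls were lost without sham replicate 3 (0.116 and 0.0730) and without VSG replicate 6 (0.0898 and 0.0649), and that of Kng1 also without sham replicate 1 (0.0662). The pair are closely related genes that sit 28382 bases apart on chromosome 16 (Kng2 at 22985854 to 23029482, minus strand, and Kng1 at 23057865 to 23082078, plus strand). Of all 50-base windows of their transcripts, 17.2% of those of Kng1 and 19.4% of those of Kng2 occur in the other gene, so their separate levels are uncertain. The ratio of Kng2 to Kng1 in FPKM was 0.197, 0.164 and 0.200 under sham and 0.179, 0.156 and 0.153 after VSG, with an exact two-sided permutation p of 0.2.

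F11, the gene of a protease activated by thrombin and by factor XII, did not pass the threshold, although its log2 fold change was larger than that of Kng1. F11 was at 51.8, 81.9 and 43.2 CPM under sham and at 139, 86.0 and 184 CPM after VSG (log2 fold change 1.21, SE 0.337, adjusted p 0.0570 by edgeR). Sham replicate 2 and VSG replicate 5 nearly met, and without VSG replicate 5 the log2 fold change was 1.44 (adjusted p 0.0239). F11 was also called by DESeq2 (0.00626), with total counts (0.0364) and without a filter (0.0264). Klkb1, which encodes plasma prekallikrein, lies 4657 bases from F11 on chromosome 8 and was at 144 to 217 CPM under sham and 134 to 234 CPM after VSG (0.23, SE 0.264, adjusted p 0.568). Of its exon bases, 43.2% overlap Gm45753 on the same strand, so the Klkb1 counts are uncertain. F12, which encodes factor XII, was at 299.5 to 330 CPM under sham and 260 to 376 CPM after VSG (0.04, SE 0.166, adjusted p 0.875). F13b encodes the carrier subunit of factor XIII, the enzyme that crosslinks fibrin, and was at 190 to 249 CPM under sham and 137 to 245 CPM after VSG (-0.07, SE 0.237, adjusted p 0.847). The sign of F12 turned under 3 alternatives and that of F13b under 2.

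Of the 8 anticoagulant genes 1 (12.5%) was higher and 0 were lower by edgeR, near the 14.7% of all genes called. Pros1 encodes protein S, the cofactor of activated protein C. Pros1 was at 122, 102 and 109 CPM under sham and at 175, 141 and 184 CPM after VSG (log2 fold change 0.59, SE 0.139, adjusted p 0.0376). Although its groups did not overlap, the call held when VSG replicate 5 was left out and was lost when any other was, with adjusted p-values from 0.0624 to 0.146, and with total counts (0.136). Thbd encodes thrombomodulin, the endothelial receptor that turns thrombin towards protein C. Thbd was at 7.94, 8.18 and 8.85 CPM under sham and at 6.06, 6.63 and 6.30 CPM after VSG (-0.39, SE 0.126, adjusted p 0.0797). It was the only gene of the 33 with all VSG libraries below all sham libraries, and no alternative put its adjusted p under 0.05.

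Procr encodes the endothelial protein C receptor. Procr was at 2.99, 1.74 and 1.63 CPM under sham and at 10.4, 2.61 and 4.82 CPM after VSG (log2 fold change 1.48, SE 0.527, adjusted p 0.102 by edgeR). VSG replicate 5 lay below sham replicate 1, the log2 fold change was 0.80 without VSG replicate 4 (adjusted p 0.238), and without VSG replicate 5 the gene was called (1.81, adjusted p 0.0335), as it was by DESeq2 (0.0345). In replicates 4, 5 and 6 the summed macrophage markers were at 2165, 742 and 1376 CPM and the neutrophil markers at 1824, 148 and 842 CPM, both in the order of Procr. Cpb2 (1066, 506 and 847 CPM) had this order too, and a link of Procr to these markers was not tested. In sham replicates 1, 2 and 3 they were at 730, 345 and 509 CPM and at 14.3, 2.604 and 4.44 CPM, both lowest in replicate 2, while Procr was lowest in replicate 3. Tfpi, which encodes the inhibitor of the tissue factor pathway, was at 10.1 to 12.7 CPM under sham and 13.9 to 14.7 CPM after VSG (0.33, SE 0.122, adjusted p 0.113) without overlap. The other 4 genes overlapped between the groups. Serpinc1, which encodes antithrombin, was at 1614 ± 247 CPM under sham and 1644 ± 210 CPM after VSG (0.03, SE 0.201, adjusted p 0.938), and 34.4% of its exon bases lie opposite Zbtb37. Serpind1 (heparin cofactor II), Proc (protein C) and Proz (protein Z) had log2 fold changes of 0.19 (SE 0.172), -0.06 (SE 0.201) and 0.38 (SE 0.184), with adjusted p-values of 0.458, 0.847 and 0.193. The signs of Serpinc1 and Proc turned under 6 and 2 alternatives.

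Of the 7 fibrinolysis genes 2, both of them genes of inhibitors, were higher and 0 were lower by edgeR, against 6.79% and 7.87% of all genes. At an unadjusted p under 0.05, 4 were higher and 1 was lower, against 16.9% and 17% of all genes. DESeq2 also called Plg and Hrg as higher and Plat as lower, where it called 8.73% of all genes as higher and 9.98% as lower. Serpinf2 encodes α2-antiplasmin, which inactivates plasmin. Serpinf2 was at 527, 589 and 462 CPM under sham and at 766, 960 and 911 CPM after VSG, 1.67-fold higher (log2 fold change 0.74, SE 0.168, adjusted p 0.0337 by edgeR). Cpb2 encodes the carboxypeptidase TAFI, which protects fibrin from lysis. Cpb2 was at 291, 320 and 277 CPM under sham and at 1066, 506 and 847 CPM after VSG, 2.72-fold higher (1.44, SE 0.276, adjusted p 0.0227). The groups did not overlap in either gene, and VSG replicate 5 held the lowest VSG value of Cpb2 and the highest of Serpinf2. The call of Serpinf2 held when VSG replicate 4 was left out and was lost when any other was, with adjusted p-values from 0.0545 to 0.149. That of Cpb2 was lost without any 1 of the sham libraries or VSG replicate 6, with values from 0.0627 to 0.112.

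Plg, the gene of plasminogen, was at 1967, 2630 and 2107 CPM under sham and at 3304, 3981 and 4011 CPM after VSG (log2 fold change 0.75, SE 0.220, adjusted p 0.0640 by edgeR, 7.3e-04 by DESeq2). Hrg encodes a histidine-rich plasma glycoprotein that binds plasminogen and heparin and lies 24197 bases from Kng2. Hrg was at 951, 1511 and 1147 CPM under sham and at 1600, 1987 and 2349 CPM after VSG (0.72, SE 0.249, adjusted p 0.0961, 0.0275 by DESeq2). In both genes the VSG libraries lay above the sham libraries, with sham replicate 2 the highest of its group. Of the exon bases of Plg, 11.3% lie opposite Slc22a3, which had 1615 counts in all against 416511.

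The genes of the plasminogen activators and of their receptor were low in these livers, all under 10 CPM in every library. Plat, which encodes tissue plasminogen activator, had 178, 44 and 171 reads counted under sham and 16, 52 and 20 after VSG, or 6.57, 2.01 and 6.496 CPM against 0.724, 2.22 and 0.954 CPM. Sham replicate 2 lay with the VSG libraries, so the groups overlapped (log2 fold change -1.94, SE 0.584, adjusted p 0.0683 by edgeR). Plat was called as lower by DESeq2 (0.00762), without a filter (0.0310), and when sham replicate 2 (0.0497) or VSG replicate 5 (0.0356) was left out. The summed stellate cell markers were lowest in sham replicate 2 within sham livers (470.0 CPM) and highest in VSG replicate 5 within VSG livers (395 CPM). In sham replicates 1, 2 and 3, Col1a1 (120, 29.2 and 112 CPM) and Col3a1 (221, 75.6 and 238 CPM) were low in replicate 2. Hand2 (7.98, 12.6 and 9.61 CPM) was highest there, and Lrat (47.0, 46.1 and 43.8 CPM) changed little. Any link of these markers to Plat was not tested. Plau, the gene of urokinase, was at 9.60, 2.47 and 8.51 CPM under sham and 5.20, 5.56 and 2.67 CPM after VSG (-0.62, SE 0.515, adjusted p 0.425), with sham replicate 2 again the lowest sham library. The summed bile duct markers were at 169.7, 57.7 and 253 CPM under sham and at 199.7, 73.4 and 142.5 CPM after VSG. They were lowest within sham in replicate 2, as Plau was, and lowest within VSG in replicate 5, where Plau was highest. Of the 5 genes, Sox9 was called as higher by edgeR and the other 4 had negative log2 fold changes (list median -0.76). Spp1 alone made 147 of the mean sum of 160 CPM under sham and 107 of 139 CPM after VSG. Plaur, the gene of the urokinase receptor, was at 1.46 to 2.81 CPM under sham and 1.92 to 5.02 CPM after VSG (0.53, SE 0.444, adjusted p 0.429), and its sign turned without VSG replicate 4. Hgfac, whose product activates hepatocyte growth factor, was at 118 to 199 CPM under sham and 86.2 to 139 CPM after VSG (-0.41, SE 0.251, adjusted p 0.282), also with overlap.

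**Figure D4:**
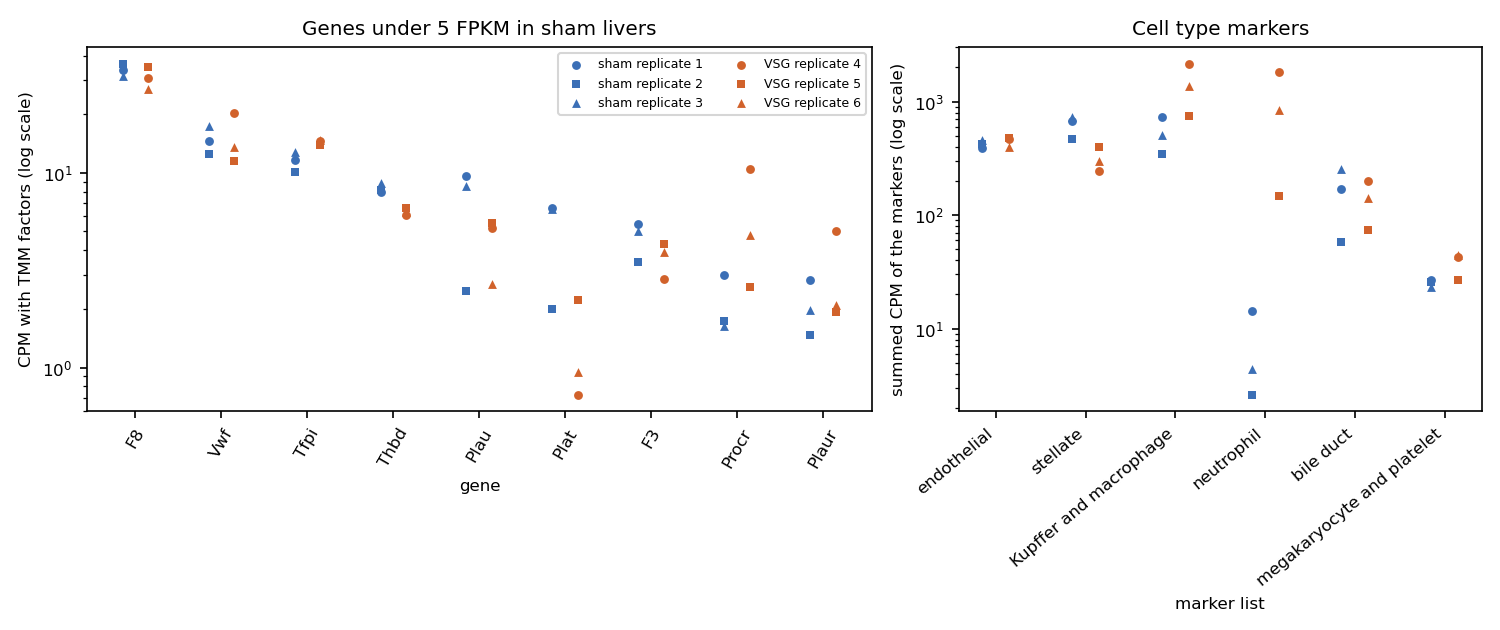
The left plot gives CPM by library on a log axis for the 9 genes under 5 FPKM in sham livers, and the right plot gives the summed CPM of 6 lists of cell type markers, with colours and shapes as in the plot of CPM by library. Sham replicate 2 (blue square) lies apart from the other sham libraries in Plau and Plat, and the neutrophil sums span 2.604 to 14.3 CPM under sham and 148 to 1824 CPM after VSG.

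Ordered by level per length, fibrinogen led the group in every condition, followed in sham livers by Hrg (603 ± 142 FPKM), Plg (602 ± 94.1 FPKM) and Kng1 (438 ± 45.6 FPKM). The order depends on the summed exon length of each gene, which can exceed the length of its mRNA in liver. Serpinc1, with 8546 exon bases, had a higher mean sham CPM (1614) than Hrg (1203), with 1994 exon bases. Hrg and Plg did not differ beyond their spread. In VSG livers the next levels were those of Plg (1015 ± 108 FPKM), Hrg (992 ± 188 FPKM) and Kng1 (887 ± 77.2 FPKM), and Cpb2 (495 ± 173 FPKM) stood above Serpinf2 (378 ± 43.3 FPKM) and F2 (336 ± 27.4 FPKM). At the lower end, 9 genes were under 5 FPKM in both groups, and they were F3, F8, Vwf, Thbd, Tfpi, Procr, Plat, Plau and Plaur. Of these, 0 were called by edgeR, 4 had an unadjusted p under 0.05 (Procr and Tfpi higher, Plat and Thbd lower), against 33.9% of all genes, and DESeq2 called Procr and Plat.

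Several genes of the group are neighbours on a chromosome. The fibrinogen genes had log2 fold changes from 2.32 to 2.36. On chromosome 16 Hrg, Kng2 and Kng1 had values of 0.72, 0.82 and 1.02. On chromosome 8 F7, F10 and Proz, in that order along the plus strand, had values of 0.74, 0.53 and 0.38, and F11 and Klkb1 had 1.21 and 0.23. Differences between neighbours were not tested.

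Beyond the 33 genes, 36 other genes of these pathways were listed, of which 29 had enough counts (not Serpina5, Serpinb2, F2rl2, F2rl3, Bdkrb1, Bdkrb2 or Klk1), 7 were higher and 2 were lower after VSG by edgeR (31.0% called, against 14.7% of all genes), with a median log2 fold change of 0.14 against 0.03 over all genes. Fgl1 encodes a fibrinogen-like protein secreted by hepatocytes. Fgl1 was at 281 ± 56.9 CPM under sham and 2417 ± 468 CPM after VSG (log2 fold change 3.10, SE 0.257, adjusted p 0.00291) and was called under all 12 alternatives. F13a1, the catalytic subunit of factor XIII, which comes from macrophages and megakaryocytes, had 75, 31 and 34 reads counted under sham and 700, 188 and 412 after VSG (3.43, SE 0.564, adjusted p 0.0165). Its partner F13b did not pass the test, as given above. Summed megakaryocyte and platelet markers, 6 of 10 of them too low to test and 1 of the 4 tested (Ppbp) higher, were at 23.5 to 26.6 CPM under sham and 26.7 to 44.8 CPM after VSG, with Gp1bb at 0 counts in sham. Clec1b alone made 21.1 of the mean sum of 25.3 CPM under sham and 27.4 of 38.0 CPM after VSG, so the sum mostly follows this 1 gene.

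Among protease inhibitors, Serpina10, which encodes the inhibitor of factor Xa that works with protein Z, was at 211 ± 6.26 CPM under sham and 622 ± 113 CPM after VSG (log2 fold change 1.56, SE 0.168, adjusted p 0.00673 by edgeR). Serping1, the gene of the C1 inhibitor that blocks factor XII and kallikrein, was at 694 ± 54.2 and 1533 ± 262 CPM (1.14, SE 0.191, adjusted p 0.0168). The protease scavengers A2m (3.56, adjusted p 0.0493), Mug1 (1.45, adjusted p 0.0217) and Mug2 (1.25, adjusted p 0.0251) were also higher, but they are close relatives whose counts are uncertain where reads were split among them, and A2m had at most 34 counts in a sham library. The lower genes were S100a10, part of a plasminogen receptor on cell surfaces, with 3651, 2439 and 3201 counts against 590, 686 and 731 (-2.02, SE 0.137, adjusted p 0.00177, called under all 12 alternatives), and the vitamin K reductase Vkorc1l1 (-0.35, SE 0.0874, adjusted p 0.0424). Mug2, Vkorc1l1 and the single genes named out of the lists of cell type markers were picked after their values were seen. The count of 9 of these other genes fell to 2 (sham replicate 3 left out), 3 (VSG replicate 6) or 5 (sham replicate 2), and 13 were called with DESeq2. Without sham replicate 3 the calls of A2m, F13a1, Serpina10, Mug1, Mug2, Serping1 and Vkorc1l1 were lost, with adjusted p-values from 0.0512 to 0.154. Without VSG replicate 6 the same calls other than that of Serpina10 were lost. Without sham replicate 2, F13a1 (0.0544), A2m (0.130), Mug2 (0.0767) and Vkorc1l1 (0.111) lost theirs. A2m and Vkorc1l1 were also lost without sham replicate 1 or VSG replicate 4, Mug1 without sham replicate 1 (0.0628), Mug2 without VSG replicate 4 (0.0527), A2m with limma-voom (0.147) or RLE size factors (0.0503), and Vkorc1l1 without a filter (0.0746).

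**Figure D5:**
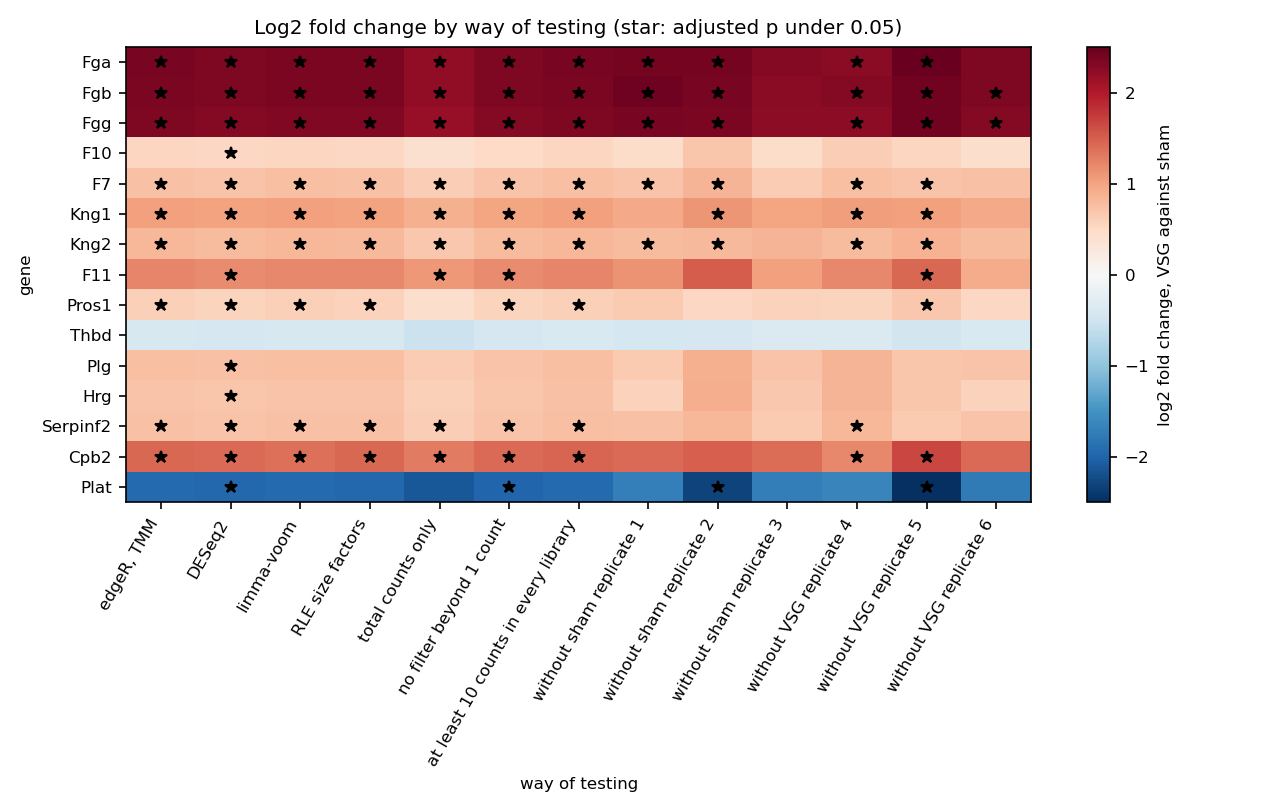
The heat map gives the log2 fold change (colour, red for higher after VSG) of the 15 genes with an adjusted p under 0.1 under edgeR and its 12 alternatives, and a star marks an adjusted p under 0.05. The colours of a row stay alike across the columns, while the column without sham replicate 3 holds 0 stars and that of DESeq2 14.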

How the data were processed

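Raw read counts per gene were deposited for 3 sham and 3 VSG livers, and groups were taken from the sample titles. Per the labels and the methods, the authors made strand-specific poly(A) libraries, aligned reads with STAR 2.6.0 to mm10 and obtained the deposited counts with featureCounts, whose annotation release, strand option and handling of shared reads are not given in the sources used here. The table also holds the summed exon length of each gene, deposited by the authors and used for FPKM. Symbols came from GENCODE M21, where 54487 of 55385 identifiers matched with version and position and 55144 without version.

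The test was that of edgeR 4.0.16, run in R 4.3.3 (filterByExpr with a minimum count of 10 and a minimum total of 15, TMM factors, glmQLFit and glmQLFTest with group as the only term, Benjamini-Hochberg adjustment, threshold 0.05). The standard error is the size of the log2 fold change over the root of F. CPM and FPKM use TMM factors. Unless another tool is named, adjusted p-values come from this test. The smallest chi-square per degree of freedom between libraries of a group was 25.2, far above counting noise, so all 6 were kept. Alternatives were DESeq2 1.42.0, limma-voom (limma 3.58.1), RLE size factors, total counts, a filter of only 1 count or of 10 counts per library, and leaving out each library. The fits were tested on simulated data. Promoter windows came from the RefSeq table for GRCm38.p6. Matches were counted by script.

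The genes and lists were chosen with earlier results of these data known. Every one of the 33 genes is given. Those with an adjusted p under 0.1 are given per library. In other lists up to 6 called genes with the largest changes and 5 set by role could be named, and some of these are not reported here. Libraries of unknown preparation batch were compared, and the p-values set the difference between the groups against the spread between these animals.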

Additional observations from a re-analysis of the deposited data

How the results depend on the processing

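No paired analysis was possible because the sham libraries are numbered 1 to 3 and the VSG libraries 4 to 6, with no shared number. Across the fits that left out 1 library, from 0 to 11 of the 33 genes, from 2 to 12 of the other pathway genes and from 159 to 2732 of all genes were called, lowest without sham replicate 3 and highest without VSG replicate 5. With DESeq2, 15 of the 33 genes and 3252 of all genes were called. Of the 396 refits of single genes of the group, 335 kept direction and side of the threshold, 26 lost a call, 13 gained one and 22 changed sign, and where a value changed the cause was not tested beyond the loss of libraries. Total counts moved the median of all genes by -0.14 on the log2 scale and the share of calls that were higher from 46.3% to 24.3%, while the count among the 33 genes was 9 with either scaling, Pros1 being lost and F11 gained. Sign changes concerned genes that were not called. With total counts they were F2 (-0.0062), F12 (-0.096), Serpinc1 (-0.0997) and Vwf (-0.13). Vwf was also negative with DESeq2 (-0.0080), limma-voom (-0.022) and no filter (-0.019), as was Serpinc1 with no filter (-0.0050). Across the fits that left out 1 library, log2 fold changes ran from -0.088 to 0.19 for F12, from -0.24 to 0.15 for F13b, from -0.054 to 0.80 for Plaur, from -0.25 to 0.098 for Proc, from -0.064 to 0.15 for Serpinc1, from -0.25 to 0.16 for Vwf and from -0.23 to 0.022 for Vkorc1, with ends set by VSG replicate 4 or 5 except the upper ends of Plaur (sham replicate 1) and Serpinc1 (sham replicate 2). The log2 difference between the groups ranged from -0.056 to 0.048 for the Fgb to Fga ratio, from -0.063 to -0.015 for Fgg to Fga and from -0.29 to -0.15 for Kng2 to Kng1. The standard errors of Plat (0.584), Procr (0.527), Plau (0.515) and Plaur (0.444) were the widest of the 33 genes, and the parts of read depth and of the spread between animals in them were not tested.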

Other observations

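Of 30 listed genes of other plasma proteins made by hepatocytes, 13 were higher and 0 were lower after VSG by edgeR (43.3% called, where 6.79% of all genes were called as higher and 7.87% as lower), and 4 were lower at an unadjusted p under 0.05, against 17% of all genes. Their median log2 fold change was 0.85, against 0.33 in the 33 clotting genes and 0.03 over all genes. Large rises were those of Itih3, a hyaluronan-binding inhibitor chain (942 ± 57.6 CPM under sham and 5486 ± 1428 CPM after VSG), and Hpx, the haem carrier hemopexin (4370 ± 774 and 17806 ± 6976 CPM), with adjusted p-values of 0.00673 and 0.0260. Without sham replicate 3 these were 0.0519 and 0.114, and Hpx was also not called without sham replicate 1, sham replicate 2, VSG replicate 4 or VSG replicate 6 (0.0511 to 0.0931). The lists were not tested against each other.

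Of 15 transcription factors known from liver clotting genes, 3 were higher and 0 were lower by edgeR (20% called, against 14.7% of all genes, and 0 lower at an unadjusted p under 0.05), with a median log2 fold change of 0.18. Stat3, through which IL-6 acts, was at 126 ± 7.83 CPM under sham and 257 ± 26.0 CPM after VSG (log2 fold change 1.02, adjusted p 0.00809, 0.0558 without sham replicate 3). Foxa3 had a log2 fold change of 0.67 (adjusted p 0.0230), which was not called without sham replicate 1, sham replicate 3, VSG replicate 4 or VSG replicate 6 (0.0547 to 0.112). Onecut1 had one of 2.40 (adjusted p 0.0341), from 62 to 128 reads under sham and 547, 625 and 137 after VSG, and it was called without VSG replicate 6 but not without any other 1 library (0.0510 to 0.134) nor with limma-voom (0.0890). Mesothelial markers, with 0 of 4 called by edgeR and 0 at an unadjusted p under 0.05, summed to 2.56 to 4.28 CPM under sham and 1.95 to 7.44 CPM after VSG.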
